A study of Mus musculus with 18 samples.

Results

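The 8 genes described here are Hmgcs1, Pmvk, Idi1, Fdps, Sqle, Cyp51, Insig1 and Srebf2, 8 of 22485 genes measured on 18 microarrays of mouse macrophages. They were chosen by gene symbol, as genes of cholesterol synthesis and its control, and followed across the 5 groups of the study and within arrays of one replicate letter. Of the 8 genes 6 encode enzymes and 2 encode regulators of the pathway. None encodes a receptor or transporter of cholesterol uptake, so uptake is described through a separate list of 8 measured genes.

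Animal cells build cholesterol from acetyl-CoA through mevalonate and a chain of isoprenoids that ends in squalene, which is closed into a ring and trimmed to cholesterol. Transcription of the pathway is driven by SREBP2, the product of Srebf2, a factor held in the endoplasmic reticulum by the INSIG proteins while sterols are plentiful. When sterols run low, SCAP escorts it to the Golgi, where it is cut, and the released part binds sterol regulatory elements in promoters, often near a CCAAT box. In macrophages, which take up lipoproteins and whole cells, this programme is balanced by oxysterol sensing through LXR and by efflux through ABC transporters.

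Gene expression was measured in macrophages grown from bone marrow of mice of 8 to 10 weeks for 7 days with 10 ng/ml M-CSF, a growth factor of macrophages. The groups were Nrf2-/- cells given 200 µM heme-albumin for 4 h and then 10 ng/ml LPS for 4 h (5 arrays), Nrf2-/- cells given LPS for 4 h (4 arrays), Nrf2+/+ cells given heme-albumin and then LPS in the same way (3 arrays), Nrf2+/+ cells given LPS (3 arrays) and Nrf2+/+ cells given albumin for 4 h (3 arrays). LPS is a bacterial cell wall component that activates macrophages, heme is the iron-bearing group of hemoglobin, and Nrf2, encoded by Nfe2l2, is the factor that switches on antioxidant genes. Each array set 1 sample, labelled with Cy5, against untreated macrophages, labelled with Cy3, so a log2 ratio above 0 means more Cy5 than Cy3 signal. The dyes were the same way round on every array. A dye effect on a gene thus cannot be told apart from a difference from untreated cells.

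The design text speaks of independent biological replicates, lettered a to e in the labels. Whether the LPS arrays had albumin first, and the genotype of the untreated reference, cannot be read from the labels. Nfe2l2 was listed at exactly 0 on all 5 Nrf2-/- heme and LPS arrays and all 4 Nrf2-/- LPS arrays, and a ratio of 0 does not by itself check the genotype. The Nrf2 target Nqo1 averaged 0.46 ± 0.47 in Nrf2-/- heme and LPS arrays (SD, n = 5), against 3.18 ± 0.34 in Nrf2+/+ heme and LPS arrays (SD, n = 3). Between 17.9% and 48.8% of features were listed at exactly 0 on an array, most on the Nrf2-/- heme and LPS array a. None of the 8 genes was at 0 on any array. The median ratio of each array was 0. A ratio to a macrophage reference gives no level of a cell type marker. Marker lists of 5 cell types were followed. With LPS against albumin in wild type, 2 of 8 macrophage markers (Adgre1 and Cd14), 1 of 8 neutrophil markers (Ngp), 1 of 6 T and NK cell markers (Ncr1) and 2 of 5 stromal markers (Pdgfrb at 3.90 and Dcn at 1.06) were higher. Elane of the neutrophil list and Cd79b, 1 of 4 B cell markers, were lower, and over all genes 28.6% were called. The rest of the stromal list had lower means under LPS, none of them called, and the list had a median change of -0.55. Among these, Col1a2 averaged -0.61 ± 1.41 under LPS and 1.26 ± 0.33 under albumin (SD, n = 3 each). With heme before LPS in wild type, macrophage markers Fcgr1 and Mertk were lower, neutrophil markers S100a8 and Elane higher, and of the stromal markers Acta2 was higher and Dcn lower, where 14.7% of all genes were called. With heme in the knockout Fcgr1 was lower and Elane and Acta2 were higher, where 6.77% of all genes were called. No B, T or NK cell marker was called in either comparison of heme and LPS with LPS. Heme and LPS against albumin had 2 macrophage markers higher and 2 lower. It also had 2 neutrophil, 1 T and NK cell and 1 stromal marker higher and 1 B cell marker lower, beside 27.3% of all genes called. Between genotypes under heme and LPS 1 macrophage marker was higher and 1 neutrophil marker lower, beside 5.29% of all genes called. Some of these calls rest on values of exactly 0. Dcn was at 0 on every albumin array and every wild-type heme and LPS array. Pdgfrb was at 0 on albumin arrays a and c, and Ncr1 on wild-type LPS arrays a and b. The part of these marker shifts in the values below was not tested. In whole cultures, fewer cells of a type and less RNA per cell cannot be told apart.

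Promoter windows, 250 bases before to 50 bases after the gene's start in RefSeq on build GRCm38.p6, were at hand for 6 of the 8 genes, with 2 windows for Pmvk. They were searched on both strands for the sterol regulatory element as TCACNCCAC and in the shorter form TCACCCCA, which overlap where both match, for the CCAAT box, and for the core of the antioxidant response element that Nrf2 binds, TGACNNNGC. Of 32851 windows of this length 1.24% held the first form, 1.56% the shorter form, 37.4% a CCAAT box and 12.4% the antioxidant core. The windows of Hmgcs1 and Srebf2 are shown because they held a sterol regulatory element, and the first window of Pmvk because Pmvk was the member whose change passed the test. The second window of Pmvk, at chr3:89459321-89459620, is not shown. Which of the 2 starts these cells use was not tested. They lie at chr13:119690101-119690400, chr15:82147019-82147318 and chr3:89454291-89454590, each on the plus strand, and capitals mark the sterol regulatory element and CCAAT boxes (ATTGG where the box is on the minus strand).
Hmgcs1: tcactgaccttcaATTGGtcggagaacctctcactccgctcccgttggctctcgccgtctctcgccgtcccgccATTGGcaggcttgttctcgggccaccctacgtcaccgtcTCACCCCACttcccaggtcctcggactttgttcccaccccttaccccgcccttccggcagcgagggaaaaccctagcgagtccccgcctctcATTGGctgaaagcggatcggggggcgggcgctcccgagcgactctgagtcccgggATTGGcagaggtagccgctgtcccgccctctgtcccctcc
Srebf2: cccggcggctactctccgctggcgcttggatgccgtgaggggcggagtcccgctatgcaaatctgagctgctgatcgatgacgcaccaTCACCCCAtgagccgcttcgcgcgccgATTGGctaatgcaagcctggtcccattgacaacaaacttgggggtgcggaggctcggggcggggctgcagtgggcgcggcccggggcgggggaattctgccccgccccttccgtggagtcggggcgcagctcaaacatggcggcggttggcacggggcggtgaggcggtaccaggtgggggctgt
Pmvk: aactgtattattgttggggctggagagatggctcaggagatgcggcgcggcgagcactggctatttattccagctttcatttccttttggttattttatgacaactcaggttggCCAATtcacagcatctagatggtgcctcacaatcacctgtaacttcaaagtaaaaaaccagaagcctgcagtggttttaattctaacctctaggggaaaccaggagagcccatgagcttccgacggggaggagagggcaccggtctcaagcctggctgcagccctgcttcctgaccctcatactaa

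In Hmgcs1 both forms of the sterol regulatory element matched the same bases, starting 137 bases before the start, and 4 CCAAT boxes lay around it, at 237, 176 and 45 bases before the start and 10 bases after it. In Srebf2 the shorter form began 162 bases before the start, with a CCAAT box 135 bases before it. Idi1 held 2 CCAAT boxes and Cyp51, Insig1 and the first window of Pmvk 1 each, with neither form of the sterol element in those letters. The antioxidant core was found in 1 of the 7 windows, the second of Pmvk. These matches describe the letters of the windows and were not set against any change.

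Hmgcs1 encodes the cytosolic HMG-CoA synthase, which makes the precursor of mevalonate. Its log2 ratio was -2.21, 0.35, -0.52, -0.43 and -0.64 on the 5 Nrf2-/- heme and LPS arrays a to e, against -0.36, -1.43, -0.44 and -0.44 on the 4 Nrf2-/- LPS arrays a to d. In wild type it was -1.82, -0.84 and -1.18 under heme and LPS, 0.72, -0.12 and -0.42 under LPS, and -0.14, -0.10 and -0.14 under albumin, each for arrays a to c. The lowest single value of Hmgcs1 was on Nrf2-/- heme and LPS array a, and the lowest group mean in wild-type heme and LPS arrays. All 3 of these wild-type arrays lay below all 3 wild-type LPS arrays, while in the knockout the arrays of the 2 treatments overlapped. The order of its group means was wild-type LPS (0.06 ± 0.59), wild-type albumin (-0.13 ± 0.02), Nrf2-/- LPS (-0.67 ± 0.51), Nrf2-/- heme and LPS (-0.69 ± 0.94) and wild-type heme and LPS (-1.28 ± 0.50, SD).

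Pmvk encodes phosphomevalonate kinase, which adds the second phosphate to mevalonate. Its log2 ratio was -0.24, 0.64, 0.20, 0.35 and 0.27 on the Nrf2-/- heme and LPS arrays, against -0.45, -1.16, -0.31 and -0.31 on the Nrf2-/- LPS arrays. The 2 groups did not overlap, nor did those of 7.64% of all genes, and the closest pair was heme array a and the LPS arrays c and d. In wild type Pmvk was 0.17, 0.15 and 0.19 under heme and LPS, 0.02, -0.14 and -0.40 under LPS, and 0.19, 0.11 and 0.19 under albumin. Here LPS arrays were the low ones, and heme and albumin arrays held nearly the same values.

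Idi1 encodes the isomerase of isopentenyl diphosphate, the building block of isoprenoids. The log2 ratio of Idi1 was -1.27, 0.95, 0.20, -0.23 and -0.29 on the Nrf2-/- heme and LPS arrays, against -0.14, -0.77, -0.17 and -0.40 on the Nrf2-/- LPS arrays. Wild-type values were -1.23, -0.01 and -0.22 under heme and LPS, 0.99, 0.05 and -0.23 under LPS, and -0.21, -0.16 and -0.22 under albumin. Array a was the lowest in both heme groups and the highest in the wild-type LPS group. Even so, the groups overlapped throughout.

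Fdps encodes farnesyl diphosphate synthase, which joins the isoprenoid units that squalene is made from. Fdps had log2 ratios of -0.99, 0.19, 0.01, -0.29 and -0.55 on the Nrf2-/- heme and LPS arrays, against -0.62, -1.04, -0.42 and -0.43 on the Nrf2-/- LPS arrays. Wild-type values of Fdps were -0.51, -0.08 and -0.19 under heme and LPS, 0.0034, -0.29 and -0.52 under LPS, and -0.21, -0.30 and -0.20 under albumin. Fdps had the narrowest spread of group means among the 6 enzymes, from -0.63 ± 0.29 in Nrf2-/- LPS arrays to -0.24 ± 0.05 under albumin (SD).

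Sqle encodes squalene epoxidase, the first oxygen-using step of the sterol branch. For Sqle the log2 ratios were -2.31, 0.08, -0.69, -1.03 and -1.22 on the Nrf2-/- heme and LPS arrays, against -2.17, -2.09, -1.37 and -1.99 on the Nrf2-/- LPS arrays. The wild-type ratios were -1.02, -0.50 and -0.79 under heme and LPS, -0.86, -1.24 and -1.46 under LPS, and -0.15, -0.09 and -0.18 under albumin. Every array that had LPS, other than Nrf2-/- heme and LPS array b, lay below the 3 albumin arrays. The group means ran in the order wild-type albumin (-0.14 ± 0.04), wild-type heme and LPS (-0.77 ± 0.26), Nrf2-/- heme and LPS (-1.03 ± 0.87), wild-type LPS (-1.19 ± 0.31) and Nrf2-/- LPS (-1.91 ± 0.37, SD).

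Cyp51 encodes the lanosterol demethylase, which acts on the first ring-shaped sterol. Its log2 ratio was -0.50, 1.08, 0.31, 0.02 and -0.07 on the Nrf2-/- heme and LPS arrays, against -0.62, -1.57, -0.34 and -0.61 on the Nrf2-/- LPS arrays. In wild type it was 0.31, 0.32 and 0.22 under heme and LPS, 0.76, -0.08 and -0.23 under LPS, and -0.14, -0.04 and -0.12 under albumin. The 4 Nrf2-/- LPS arrays were below every wild-type LPS array, and the 3 wild-type heme and LPS arrays were above every albumin array.

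Insig1 encodes one of the proteins that hold SCAP in the endoplasmic reticulum, and is itself switched on by SREBPs. Insig1 had log2 ratios of -1.13, 0.20, 0.39, 0.19 and -0.43 on the Nrf2-/- heme and LPS arrays, against -0.09, -0.45, 0.54 and 0.16 on the Nrf2-/- LPS arrays. In wild type it was -0.38, -0.66 and -0.72 under heme and LPS, 0.39, -0.18 and -0.18 under LPS, and -0.77, -0.79 and -0.71 under albumin. Insig1 was the member with the lowest ratio on the albumin arrays, at -0.75 ± 0.04 (SD, n = 3), and its wild-type LPS arrays were above both other wild-type groups.

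Srebf2 encodes SREBP2 itself. Its log2 ratio, the mean of 2 probes, was -0.89, 0.00063, 0.56, 0.21 and 0.18 on the Nrf2-/- heme and LPS arrays, against -0.22, -0.09, 0.28 and 0.23 on the Nrf2-/- LPS arrays. The wild-type ratios of Srebf2 were -0.72, 0.02 and 0.13 under heme and LPS, 0.19, 0.07 and 0.20 under LPS, and -0.21, -0.13 and -0.23 under albumin. The 2 probes of Srebf2 disagreed: in Nrf2-/- heme and LPS arrays they averaged -0.49 ± 0.38 and 0.52 ± 0.72, and in wild-type LPS arrays -0.31 ± 0.16 and 0.61 ± 0.26 (SD). For LPS against albumin in wild type they gave differences of opposite sign, -0.17 ± 0.24 and 0.86 ± 0.37 (SE, limma adjusted p = 0.679 and 0.107). Their mean is a blend of 2 unlike readings, and which of them follows the Srebf2 transcript was not tested. The 2 probes of Pmvk agreed, and each of the other 6 genes had 1 probe.

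Across the 8 genes the 5 group means were set in order from high to low, which gives 32 neighbouring pairs of groups. In 27 of the 32 pairs the gap was no larger than the larger SD of the pair. The 5 exceptions were albumin above Nrf2-/- LPS for Hmgcs1 and for Cyp51, albumin above wild-type LPS for Pmvk, and, for Sqle, albumin above wild-type heme and LPS and wild-type LPS above Nrf2-/- LPS. The wild-type albumin arrays had the smallest SD in 7 of the 8 genes, Pmvk being the exception.

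**Figure D1:**
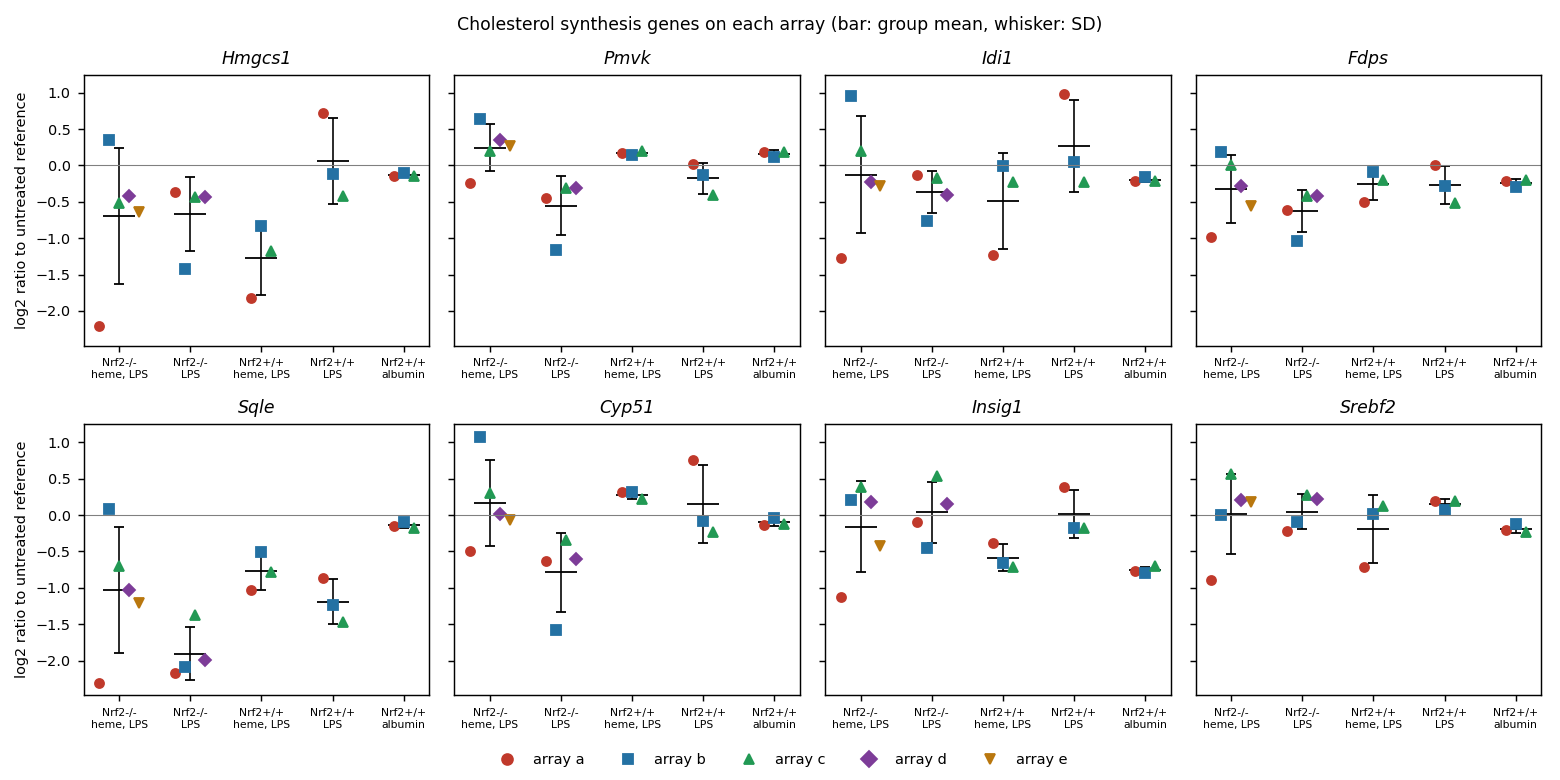
Log2 ratio to untreated macrophages (y axis) of each of the 8 genes on each array, in the 5 groups (x axis), with marker shape for the replicate letter, bars for group means and whiskers for SD. Nrf2-/- heme and LPS array a is the lowest of its group in all 8 panels, and Pmvk is the panel in which all 5 arrays of that group lie above the 4 Nrf2-/- LPS arrays.

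In wild-type cells given LPS rather than albumin, the 8 genes did not move one way. The difference was -1.05 ± 0.42 for Sqle on the log2 scale (SE, 95% interval -1.95 to -0.14, adjusted p = 0.0808), and 0.77 ± 0.34 for Insig1 (interval 0.04 to 1.49, adjusted p = 0.110), which with quantile normalization was 1.24 (adjusted p = 0.0103). In the values as deposited neither passed the threshold, an adjusted p under 0.05 in limma's moderated test over all 22485 genes, and the other 6 changes lay between -0.34 and 0.47. None of the 8 genes was called, against 28.6% of all genes, and 2 of the 8 had an unadjusted p under 0.05. In 4 of the 8, Pmvk, Sqle, Insig1 and Srebf2, the LPS arrays did not overlap the albumin arrays, and of all genes 47.2% did not. For Srebf2 this is the mean of 2 probes that separated in opposite directions. On 1 probe the LPS arrays (-0.48 to -0.19) lay below the albumin arrays (-0.15 to -0.12). On the other they (0.34 to 0.86) lay above them (-0.33 to -0.10). The median change of the 8 genes was 0.22, beside 0 over all genes. Sqle was called without Nrf2-/- heme and LPS array a (adjusted p = 0.0165) and Insig1 too (adjusted p = 0.0329), since the spread of each gene is estimated over all 5 groups.

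With heme before LPS in wild-type cells, Hmgcs1 had the largest difference from LPS alone, and the remaining genes stood on either side of 0. The Hmgcs1 change was -1.34 ± 0.51 (SE, interval -2.43 to -0.24, adjusted p = 0.109). Idi1 differed by -0.76 ± 0.46 (interval -1.75 to 0.24), Insig1 by -0.60 ± 0.34 (interval -1.32 to 0.13) and Srebf2 by -0.34 ± 0.29. On the other side of 0 were Sqle at 0.42 ± 0.42, Pmvk at 0.34 ± 0.22 and Cyp51 at 0.13 ± 0.37, and Fdps was at 0.0063 ± 0.26. None of the 8 was called, against 14.7% of all genes, and 1 had an unadjusted p under 0.05. The arrays of Hmgcs1, Pmvk and Insig1 did not overlap between the 2 treatments, nor did those of 24.2% of all genes. The spread and single arrays bore on these values. Without Nrf2-/- heme and LPS array a the adjusted p of Hmgcs1 was 0.0225 at the same change, and without the LPS-treated arrays lettered a its change was -0.74 (adjusted p = 0.282). Idi1 was -0.38 without wild-type heme and LPS array a, -0.40 without wild-type LPS array a and -0.03 without the LPS-treated arrays lettered a. Srebf2 was -0.08 without wild-type heme and LPS array a, and Sqle 0.71 without the LPS-treated arrays lettered a.

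Set against albumin, wild-type heme and LPS arrays differed by -1.15 ± 0.51 in Hmgcs1 (SE, interval -2.24 to -0.06, adjusted p = 0.115) and by -0.63 ± 0.42 in Sqle (interval -1.54 to 0.27, adjusted p = 0.307). Cyp51 was at 0.38 ± 0.37 and the other 5 genes lay between -0.29 and 0.17. None of the 8 was called, against 27.3% of all genes, and 1 had an unadjusted p under 0.05. The groups did not overlap in Hmgcs1, Sqle and Cyp51, nor in 43.7% of all genes. In a fit of only the 2 groups compared these 3 genes passed, with adjusted p of 0.0370, 0.0352 and 0.0067. This comparison and the one of heme and LPS with LPS share the wild-type heme and LPS arrays.

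In Nrf2-/- cells given heme before LPS, 1 of the 8 genes, Pmvk, was called, against 6.77% of all genes. Pmvk was 0.80 ± 0.18 higher on the log2 scale (SE, interval 0.41 to 1.19, adjusted p = 0.0161), a 1.74-fold difference that each of its 2 probes gave alone, at 0.78 (adjusted p = 0.0104) and 0.81 (adjusted p = 0.0237). Cyp51 was at 0.95 ± 0.30 (interval 0.31 to 1.60, adjusted p = 0.0808) and Sqle at 0.87 ± 0.35 (interval 0.13 to 1.62, adjusted p = 0.186), both short of the threshold. Fdps was at 0.30 ± 0.21, Idi1 at 0.24 ± 0.38, Hmgcs1 at -0.02 ± 0.42, Srebf2 at -0.03 ± 0.24 and Insig1 at -0.20 ± 0.28. The median change was 0.27, beside 0 over all genes, and 3 genes had an unadjusted p under 0.05. Pmvk was the 1 gene of the 8 whose groups did not overlap, and of all genes 7.64% did not.

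The Pmvk call depended on the fit. With the replicate letter as a block it was 0.79 (adjusted p = 0.0497) over all 18 arrays and 0.79 (adjusted p = 0.106) over the arrays that had LPS. With quantile normalization it was 0.71 (adjusted p = 0.0780), and in a fit of the 2 groups compared its adjusted p was 0.131. The main fit takes 1 spread per gene from all 5 groups. The SD of Pmvk was 0.32 in Nrf2-/- heme and LPS arrays and 0.41 in Nrf2-/- LPS arrays. It was 0.21 in wild-type LPS, 0.05 in albumin and 0.02 in wild-type heme and LPS arrays. Without both arrays of letter b, Cyp51 was 0.46 and Sqle 0.53. Without heme array a, Sqle (1.19, adjusted p = 0.0128) and Cyp51 (1.12, adjusted p = 0.0376) were called as well.

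The interaction, the heme effect in Nrf2-/- cells less the one in Nrf2+/+ cells, was above 0 in all 8 genes and called in none, against 0.947% of all genes. It was 1.31 ± 0.66 for Hmgcs1 (SE, interval -0.10 to 2.73, adjusted p = 0.689), 1.0 ± 0.60 for Idi1 (interval -0.29 to 2.29) and 0.82 ± 0.48 for Cyp51 (interval -0.20 to 1.85). The other 5 lay between 0.29 for Fdps and 0.46 for Sqle. Without the Nrf2-/- arrays lettered b these were 0.80, 0.60 and 0.33. Every one of the 8 intervals held 0, and 0 of the 8 genes had an unadjusted p under 0.05. The 8 genes are not independent of each other, since their values varied together from array to array.

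Between genotypes under LPS alone, the difference of Nrf2-/- from wild-type means was below 0 in 7 of 8 genes. The difference was -0.94 ± 0.34 for Cyp51 (SE, interval -1.68 to -0.20), whose Nrf2-/- LPS arrays all lay below the wild-type LPS arrays, while 3.02% of all genes had groups that did not overlap. It was -0.72 ± 0.48 for Hmgcs1, -0.72 ± 0.40 for Sqle, -0.64 ± 0.43 for Idi1, -0.38 ± 0.21 for Pmvk and -0.36 ± 0.24 for Fdps, and near 0 for Insig1 (0.03 ± 0.32) and Srebf2 (-0.11 ± 0.28). None of the 8 was called, against 0.00445% of all genes, which is 1 gene, and the adjusted p was 1 in each of the 8. Without wild-type LPS array a the difference was -0.40 for Hmgcs1 and -0.28 for Idi1, and without Nrf2-/- LPS array b it was -0.47 for Hmgcs1 and -0.18 for Pmvk. Cyp51 had an unadjusted p of 0.0164. The other 7 genes had overlapping groups.

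Under heme and LPS the Nrf2-/- arrays differed from wild type with 5 genes above 0 and 3 below it. Hmgcs1 was at 0.59 ± 0.46 (SE, interval -0.39 to 1.57), Insig1 at 0.43 ± 0.30 (interval -0.22 to 1.08), Idi1 at 0.36 ± 0.42 and Srebf2 at 0.20 ± 0.26. Sqle was at -0.26 ± 0.38, Cyp51 at -0.11 ± 0.33, Fdps at -0.06 ± 0.23 and Pmvk at 0.07 ± 0.20. None was called, against 5.29% of all genes, none had an unadjusted p under 0.05, and the arrays overlapped in all 8. Over all genes 7.79% had groups that did not overlap. Without wild-type heme and LPS array a Hmgcs1 was at 0.32 and Idi1 at -0.01. The intervals of Hmgcs1, Idi1 and Insig1 reach past 1 log2 unit.

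**Figure D2:**
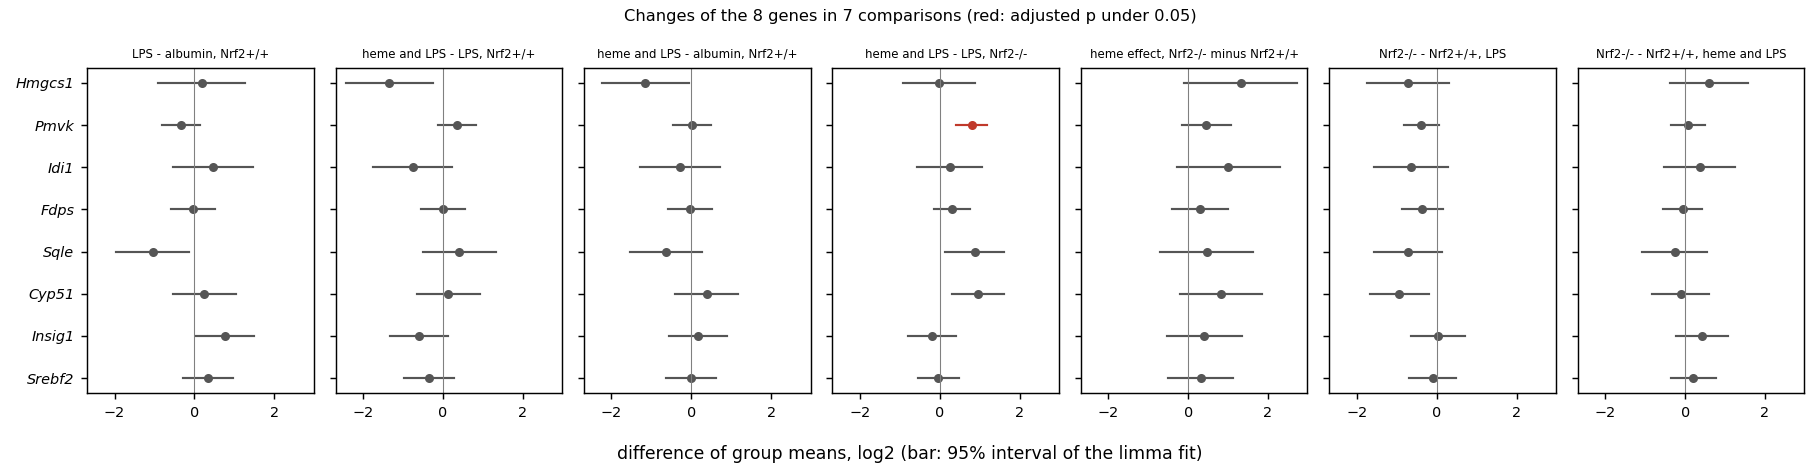
Difference of group means on the log2 scale (x axis) for each of the 8 genes (rows) in the 7 comparisons (panels), with the 95% interval of the limma fit. The one point in red, Pmvk under heme and LPS against LPS in Nrf2-/- cells at 0.80, passed an adjusted p of 0.05, and in the interaction panel all 8 points lie to the right of 0 with intervals that hold 0.

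Arrays of one replicate letter were set against each other, because deviations from the group means went together within letters in the knockout groups. For letters b and c these deviations correlated more strongly across the letters than within them. Whether those letters pair the arrays is thus not known. In Nrf2-/- cells the heme and LPS array minus the LPS array of the same letter was positive in 8 of 8 genes for letter b, with a median of 1.75 and up to 2.66 for Cyp51. It was positive in 7 of 8 for letter d (median 0.16), in 6 of 8 for letter c (median 0.40) and in 2 of 8 for letter a (median -0.52). Pmvk, whose groups did not overlap in the knockout, so that its sign within letters was fixed, was at 0.20, 1.80, 0.51 and 0.65. Sqle was negative in letter a, at -0.13, and positive in the other 3, at 2.17, 0.68 and 0.97. Cyp51 was positive in all 4, at 0.13, 2.66, 0.65 and 0.63.

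In letter b the LPS array was low and the heme array high for most of the 8 genes. With both Nrf2-/- arrays of letter b left out, an alternative chosen after seeing the data, the Pmvk change was 0.50 (adjusted p = 0.0480), and Pmvk was the 1 gene called. In wild type the same difference was positive in 1 of 8 genes for letter a (median -0.64), in 4 of 8 for letter b (median 0.07) and in 5 of 8 for letter c (median 0.17). There too the deviations of letters b and c correlated more strongly across the letters than within them. Whether these wild-type letters pair the arrays is not known.

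**Figure D3:**
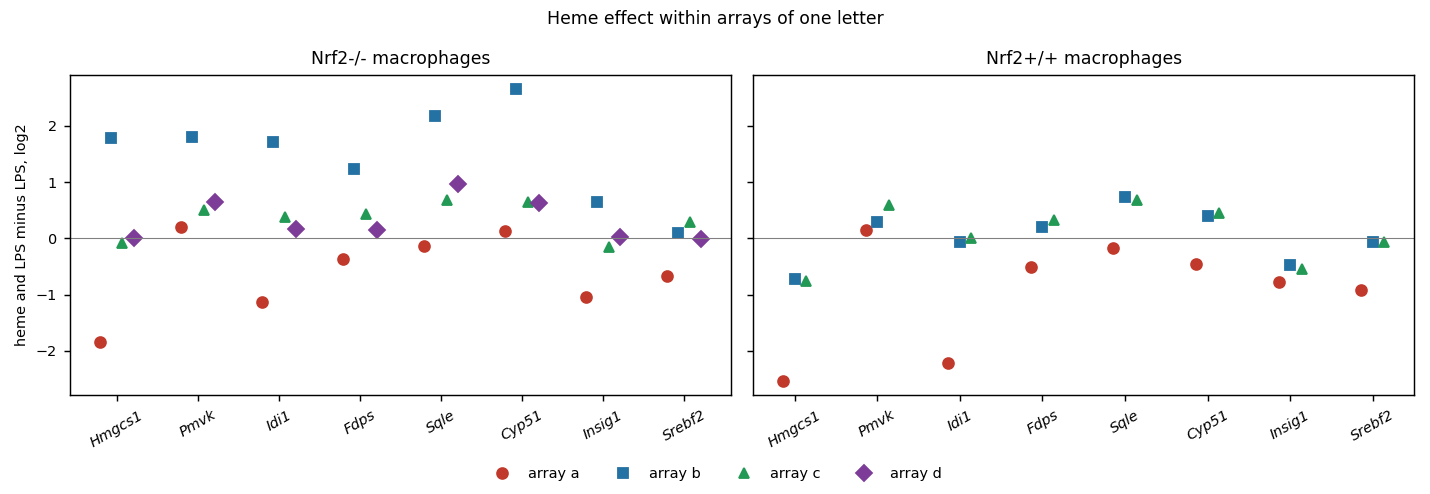
Heme and LPS array minus LPS array of the same replicate letter on the log2 scale (y axis) for each of the 8 genes (x axis), in Nrf2-/- cells on the left and Nrf2+/+ cells on the right. Letter b in Nrf2-/- cells is the highest in 7 of the 8 genes, and letter a is the lowest in each genotype. Whether letters b and c pair the arrays is not known in either genotype.

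The genotype difference within letters changed side. Under LPS the Nrf2-/- array minus the wild-type array was negative in 8 of 8 genes for letter a (median -0.85) and for letter b (median -0.83), and positive in 6 of 8 for letter c (median 0.09). Under heme and LPS it was negative in 8 of 8 for letter a (median -0.45), and positive in 7 of 8 for letter b (median 0.68) and in 8 of 8 for letter c (median 0.31).

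The 8 genes varied together between arrays of one group. The mean of the 8 was -1.19 on Nrf2-/- heme and LPS array a and 0.44 on array b of that group, while the other 3 lay between them, for a group mean of -0.24 ± 0.61 (SD, n = 5). The mean was -0.60 ± 0.34 in Nrf2-/- LPS arrays (n = 4), -0.39 ± 0.23 in wild-type heme and LPS arrays, -0.12 ± 0.36 in wild-type LPS arrays and -0.20 ± 0.0088 in albumin arrays (SD, n = 3 each). Array a of the Nrf2-/- heme and LPS group also had the most features at exactly 0, 48.8%. Array a of the wild-type LPS group had 45.7% at 0 and the highest mean of its group, 0.28. Array a of the wild-type heme and LPS group had 46.4% at 0 and the lowest mean of its group, -0.65. Array a of the Nrf2-/- LPS group had 44.3% at 0 and a mean of -0.58. In every group given LPS, array a was thus the one with the most features at 0. The part of these zeros in the values was not tested.

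As a description over 18 arrays, which share their groups and the reference, the deviation of each gene from its group means correlated with that of the mean of the other 7 at r = 0.97 for Fdps, 0.95 for Hmgcs1, 0.91 for Sqle, 0.90 for Idi1, 0.86 for Cyp51, 0.83 for Pmvk, 0.81 for Insig1 and 0.63 for Srebf2. Without Nrf2-/- heme and LPS array a and Nrf2-/- LPS array b it was between 0.70 and 0.94 for the 6 enzymes, 0.50 for Insig1 and 0.17 for Srebf2, over 16 arrays. Among pairs of log2 ratios the highest correlations were Hmgcs1 with Idi1 at 0.88 and Pmvk with Cyp51 at 0.86, and the lowest was Sqle with Insig1 at -0.06.

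The mean of the other enzymes of the pathway was high and low on much the same arrays as the mean of the 8 genes. The list held 15 further enzymes, of which 12 were measured here. Their mean correlated with the mean of the 8 genes at r = 0.84 over 18 arrays, and at 0.89 for deviations from the group means. Msmo1 (0.90), Lss (0.87) and Nsdhl (0.84), all enzymes of the steps after squalene, were the ones closest to the mean of the 8 genes. Mvk (0.51) and Ebp (0.41) were less close. Ggps1, which is counted in the list but acts on an isoprenoid branch away from squalene, was at -0.49.

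**Figure D4:**
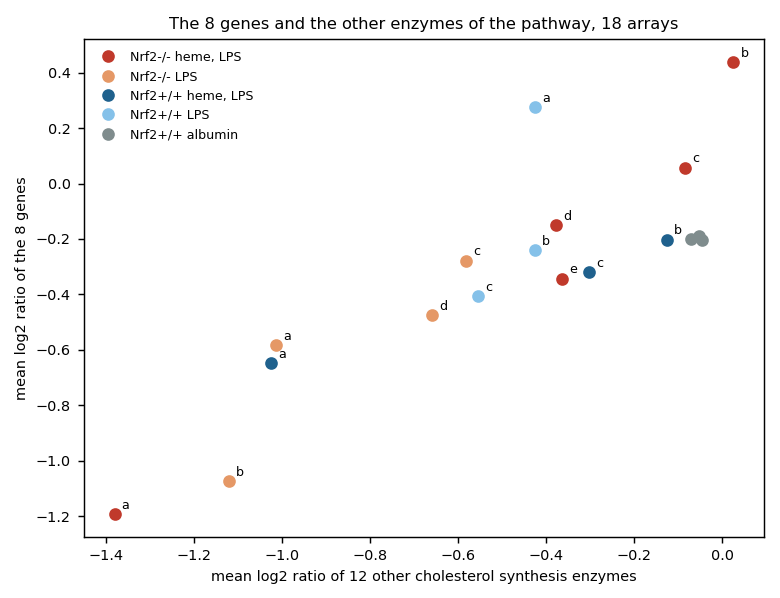
Mean log2 ratio of the 8 genes (y axis) against that of the 12 other listed enzymes, the branch enzyme Ggps1 among them (x axis), on each of 18 arrays, with colours for the groups and letters for the replicates. Nrf2-/- heme and LPS array a (-1.38 and -1.19 on the x and y axes) lies at the lower end and array b of that group (0.03 and 0.44) at the upper end.

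Outside the members and lists, 13810 genes with values other than 0 on most arrays were searched for a pattern like the mean of the 8 genes. The 5 closest by Pearson correlation over 18 arrays were 1700113H08Rik (0.79), Trnau1ap (0.75), Sra1 (0.75), Pcyt2 (0.73) and Nradd (0.72).

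Of the 12 other enzymes, 4 fell under LPS against albumin in wild type and none rose, beside 16.3% of all genes lower and 12.3% higher. Mvd, the decarboxylase that ends the mevalonate steps, changed by -1.46 ± 0.29 (SE, adjusted p = 0.00138), Mvk, mevalonate kinase, by -1.09 ± 0.24 (adjusted p = 0.00306) and Ebp, a sterol isomerase, by -0.83 ± 0.22 (adjusted p = 0.0121). The median of the 12 was -0.55, beside 0 over all genes. Mvd averaged -1.39 ± 0.17 under LPS and 0.07 ± 0.06 under albumin (SD, n = 3 each). Heme and LPS against albumin also gave 4 lower and none higher, beside 14.4% and 12.9% of all genes, with Mvk at -1.17 ± 0.24, Mvd at -1.06 ± 0.29 and Ebp at -0.99 ± 0.22. Heme and LPS against LPS in wild type gave none in either direction. In the knockout 2 of the 12 rose with heme, Mvd by 0.96 ± 0.24 (adjusted p = 0.0238) and Sc5d, a sterol desaturase, by 0.79 ± 0.22 (adjusted p = 0.0442), and 0 fell, where 4.1% of all genes were higher. The Sc5d call was lost in 20 of 29 alternatives, the replicate block among them (0.79, adjusted p = 0.110), and the Mvd call in 7. In the interaction and in both comparisons of genotypes none of the 12 was called.

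Of 5 regulators of SREBP 3 were called for LPS against albumin, where 28.6% of all genes were. Srebf1, which encodes the other SREBP, was lower under LPS than under albumin in wild type (-0.98 ± 0.18 SE, adjusted p = 0.000747), as was Mbtps1, the protease of the first cut (-0.74 ± 0.20, adjusted p = 0.0127). Insig2, the second INSIG, was 0.68 ± 0.16 higher under LPS than under albumin (adjusted p = 0.00508). With heme before LPS it was 0.62 ± 0.16 higher again than under LPS (adjusted p = 0.0159), while Scap, the escort of SREBPs, was lower (-0.66 ± 0.16, adjusted p = 0.0118). Each of these 2 calls was lost in 5 of 29 alternatives. Against albumin, heme and LPS gave a difference of 1.30 ± 0.16 for Insig2, -0.59 ± 0.16 for Scap and -0.53 ± 0.18 for Srebf1, all called, the last lost in 8 of 28 alternatives. None was called with heme in the knockout, in the interaction or between genotypes under LPS, and Insig2 was lower in Nrf2-/- than in wild-type arrays under heme and LPS (-0.63 ± 0.14, adjusted p = 0.0186). That call was lost in 5 of 29 alternatives, and with the replicate letter as a block over the arrays that had LPS the difference was -0.49 (adjusted p = 0.0853).

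Of 8 measured genes of uptake and transport, LPS raised 2 and lowered 1 against albumin in wild type, and heme before LPS raised 1 and lowered 2 against LPS. Over all genes 28.6% and 14.7% were called in these comparisons. Stard3, a carrier of cholesterol from late endosomes, was higher with LPS (0.94 ± 0.26 SE, adjusted p = 0.0123) and lower with heme before LPS (-1.38 ± 0.26, adjusted p = 0.00178), and these comparisons share the LPS arrays. Npc2, which carries cholesterol inside lysosomes, was higher with LPS (0.87 ± 0.14) and lower with heme (-0.86 ± 0.14). Lrp1, an endocytic receptor of lipoproteins, was lower under LPS than under albumin (-0.69 ± 0.15). Lipa, the lysosomal lipase that frees cholesterol from its esters, was 1.25 ± 0.34 higher with heme in wild type (adjusted p = 0.0211), a call lost in 4 of 29 alternatives. Mylip, a ligase that marks lipoprotein receptors for breakdown, fell with heme in the knockout (-1.31 ± 0.24, adjusted p = 0.00424), and its interaction was -2.01 ± 0.38 (adjusted p = 0.0202). The interaction was lost in 7 of 29 alternatives, and with the letter as a block over the arrays that had LPS it was -1.78 (adjusted p = 0.0662). It averaged -1.24 ± 0.57 in Nrf2-/- heme and LPS arrays, 0.08 ± 0.33 in Nrf2-/- LPS arrays, 0.30 ± 0.18 in wild-type heme and LPS arrays and -0.39 ± 0.21 in wild-type LPS arrays (SD). Against albumin, wild-type heme and LPS arrays had 2 genes higher and 1 lower, and 2 genes were lower with heme in the knockout, Mylip and Npc2, the call of Npc2 being lost in 23 of 29 alternatives (with the replicate block at -0.37, adjusted p = 0.0813). Between genotypes none was called under LPS, and 1 was higher and 2 were lower in Nrf2-/- arrays under heme and LPS, where 5.29% of all genes were called.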

How the data were processed

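Agilent Feature Extraction 10.5.1.1 made the deposited log10 ratios (Cy5 sample over Cy3 reference), per the submitters' processing notes and the labels. No label states the log10 scale, which rests on the form and range of the ratios; that each array centres on 0 was found in the values. How background and dyes were corrected is not known from the labels. Ratios of 44397 features were converted to log2, and probes of one symbol were averaged, which gave 22485 genes, 16347 with 1 probe. 11371 features had no symbol.

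Group means of all 18 arrays were fitted in 1 model with limma 3.58.1 (lmFit, eBayes) in R 4.3.3. The fit was also run on simulated data with independent arrays and 1 spread per gene shared by all groups. Those data lack the correlation between arrays and the unequal spreads seen here, so that run does not check the fit for them. Tests were two-sided, with p-values adjusted (Benjamini-Hochberg) over all genes of each of 7 comparisons, with calls made at an adjusted p under 0.05. Figures were drawn with matplotlib 3.10.9 and tables with pandas 2.3.3 in Python 3.11.15. All members are described, and from each pathway list and comparison up to 3 called genes with the largest change could be named. The 5 pathway lists and 5 marker lists and the 8 members were chosen with earlier results of these data known. List genes without a row are not analysed here.

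The replicate letters were checked over all genes: deviations from the group means correlated above 0.1 in every same-letter pair between the knockout groups (0.22 to 0.59), between genotypes under LPS (0.20 to 0.58) and between genotypes under heme and LPS (0.23 to 0.53). This was not so for heme and LPS with LPS in wild type (lowest 0.01) or for any pair with albumin. This rule did not set same-letter pairs against pairs of different letters. In the knockout, heme and LPS array b correlated at 0.36 with LPS array c and at 0.23 with LPS array b. Heme and LPS array c correlated at 0.32 with LPS array b and at 0.22 with LPS array c. In wild type, heme and LPS array b correlated at 0.36 with LPS array c and at 0.01 with LPS array b. Wild-type heme and LPS array c correlated at 0.32 with LPS array b and at 0.01 with LPS array c. The check therefore does not show that letters b and c pair the arrays in either genotype. A fit with the letter as a block was an alternative. Other alternatives were quantile normalization, median centring, zeros as missing, a filter on genes at 0 on more than 9 arrays, the median over probes, only the groups compared, a trended robust fit, arrays lettered a left out and each array left out. The number of arrays limits the precision.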

Additional observations from a re-analysis of the deposited data

Results flagged for a closer look

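In groups of 4 or more arrays, each gene was checked for an array far from the others by Dixon's test at 95%, over 16 sets of values, and 2 were found. Chance gives about 1 in 20. Both lay on the Nrf2-/- LPS array of letter b. Hmgcs1 was -1.43 there, against -0.44, -0.44 and -0.36 on the other 3 Nrf2-/- LPS arrays. Pmvk was -1.16 there, against -0.45, -0.31 and -0.31 on the other 3. With both Nrf2-/- arrays of letter b left out, the Pmvk change with heme in the knockout was 0.50 (limma adjusted p = 0.0480).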

How the results depend on the processing

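The number of the 8 genes called was 0 in the interaction and in both comparisons of genotypes under all 29 alternatives, where 0, 1 (under LPS) and 0 of the 8 had an unadjusted p under 0.05 in limma. For LPS against albumin in wild type it was 0, but 1 with quantile normalization, 3 in a fit of only the groups compared, 1 without the LPS-treated arrays lettered a and 1 without the Nrf2-/- arrays lettered b. Leaving out single arrays gave 0 to 2. For heme and LPS against LPS in wild type it was 0, and 0 to 1 when single arrays were left out. For heme and LPS against albumin it was 0, but 3 in a fit of only the groups compared, and 0 to 1 without single arrays. In the knockout the heme comparison had 1 call (Pmvk), but 0 with quantile normalization, 0 in a fit of only the groups compared, 0 with the replicate block over LPS-treated arrays and 2 without the LPS-treated arrays lettered a. Without single arrays it was 1 to 3. The replicate block changed no other call of the 8 genes. No called change of the 8 genes turned its direction under any alternative, while 60 values of uncalled changes crossed 0. The cause of these shifts was not tested. The fit of only the groups compared uses fewer arrays and takes the spread of each gene from those groups alone. It gave more calls in the 2 comparisons with albumin and fewer with heme in the knockout. The alternatives with arrays lettered b left out and with single probes of Pmvk and Srebf2 were chosen after seeing the data.

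Counts over all genes moved by more than 1.5 times in a fit of only the groups compared, to 1545 (from 3303) for heme and LPS against LPS in wild type, 752 (from 1523) in the knockout, 116 (from 213) for the interaction and 317 (from 1189) between genotypes under heme and LPS. The knockout count was 951 without Nrf2-/- LPS array a. The interaction count was 141 with the replicate block over LPS-treated arrays and between 135 and 323 without single arrays. Between genotypes under LPS the count of 1 became 0 with either block or only the groups compared, 6 without the LPS-treated arrays lettered a, and 1 to 3 without single arrays. Of the 12 other enzymes 3 to 8 were called for LPS against albumin (4 in the report), 2 to 6 for heme and LPS against albumin (4) and 0 to 3 with heme in the knockout (2). Of the 5 regulators 0 to 2 were called with heme in wild type (2), and of the 8 uptake and transport genes 0 to 2 with heme in the knockout (2) and 0 to 4 between genotypes under heme and LPS (3). Of 53 named calls of list genes 25 were lost under at least 1 alternative.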

Other observations

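Acss2, which makes acetyl-CoA from acetate and so supplies the first substrate of sterol and fatty acid synthesis, was higher with heme in wild type, and the heme effect differed between genotypes. Its log2 ratio averaged -0.02 ± 0.25 in Nrf2-/- heme and LPS arrays (SD, n = 5) and -0.46 ± 0.28 in Nrf2-/- LPS arrays (n = 4), and 2.10 ± 0.24 in wild-type heme and LPS arrays and -0.34 ± 0.17 in wild-type LPS arrays (n = 3 each). The heme effect in wild type was 2.44 ± 0.18 (SE) and the interaction was -2.0 ± 0.23 (limma adjusted p = 0.000813). It was the one of 9 fatty acid synthesis genes called in the interaction, and none of the 9 was called with heme in the knockout. Under LPS against albumin 2 of the 9 fell, beside 16.3% of all genes, Scd2 (-2.72 ± 0.77) and Elovl6 (-1.93 ± 0.54). The Scd2 call was lost without wild-type LPS array a (adjusted p = 0.0575), and the Elovl6 call in 3 of 28 alternatives, without wild-type LPS array b or c (adjusted p = 0.0746 and 0.0732) and in a fit of only the groups compared (0.140).

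Of 7 measured genes of oxysterols, cholesterol esters and efflux, 4 fell and none rose with heme before LPS in wild type, and 2 fell in the knockout, Abcg1 and Abca1. Over all genes 6.35% and 2.67% were lower in these comparisons. Under the alternatives the count was 2 to 5 in wild type and 1 to 3 in the knockout, where the call of Abca1, another exporter of cholesterol, was lost in 17 of 29 (with the letter as a block over the arrays that had LPS, -1.50, adjusted p = 0.0697). Abcg1, an exporter of cholesterol, was lower with heme in the knockout (-2.90 ± 0.34 SE, limma adjusted p = 0.000178) and in wild type (-4.48 ± 0.42, adjusted p = 5.84e-06). Ch25h, which makes an oxysterol that restrains SREBP processing, was higher under LPS than under albumin in wild type (4.01 ± 0.66) and lower with heme before LPS (-3.37 ± 0.66), the second of these calls being lost in a fit of only the groups compared (adjusted p = 0.161). Ch25h averaged 1.0 ± 1.79 in wild-type heme and LPS arrays and 4.38 ± 0.73 in wild-type LPS arrays (SD, n = 3 each), and these comparisons share the LPS arrays. Nr1h3, which encodes the oxysterol receptor LXR alpha, was lower with heme in wild type (-1.87 ± 0.27), and its interaction was 1.78 ± 0.36 (adjusted p = 0.0275). The interaction was lost in 13 of 29 alternatives, with the replicate block at 1.66 (adjusted p = 0.0691).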
